A study of Mus musculus with 4 samples.

Results

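Alpha-fetoprotein (Afp) and glypican 3 (Gpc3) are oncofetal markers of hepatocellular carcinoma (HCC): genes active in the fetal liver, low in the adult organ and often active again in liver tumors. They were described here with Golm1, Spink1, Prom1 and Mdk, which have also been used as carcinoma or progenitor markers. The members are the rows of the count matrix with these symbols, and each symbol had 1 row, so that 6 of 31053 genes were taken. The identifiers in the files are ENSMUSG00000054932 (Afp), ENSMUSG00000055653 (Gpc3), ENSMUSG00000021556 (Golm1), ENSMUSG00000024503 (Spink1), ENSMUSG00000029086 (Prom1) and ENSMUSG00000027239 (Mdk).

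The study followed tumor development in mice with a gene-induced model of HCC by single-cell RNA sequencing of dissociated liver. It had 4 samples with no replicate: normal liver at week 0 (HCC-NL), tumor tissue at week 4 (HCC-ES) and at week 8 (HCC-MS), and a last tumor sample (HCC-LS), for which the sample's label says week 10 and the description of the series says week 12. The gene that induces the tumors, the strain, the age and the number of animals in a sample are not given in the sources used here. Barcodes carry the suffixes 1 to 4, which are called libraries 1 to 4 here, and no source used here pairs a suffix with a sample. Weeks were therefore not compared, the matrix was taken as 1 pooled sample, and library values are descriptions with no test. All intervals are 95% intervals for counting error only.

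After filtering, 34814 cells in 15 marker-defined classes remained of 38072 barcodes, and 20357 of them (58.5%) were hepatocyte-like (3693, 4450, 6464 and 5750 in libraries 1 to 4). The libraries held between 15593960 and 49975828 unique molecular identifiers (UMIs, counted RNA molecules), with medians between 1304 and 3131 per barcode, and libraries 2 and 4 were the deeper ones. There were 710 barcode sequences that occurred in more than 1 library. The 12 hepatocyte markers set the class apart from T and B cells, with Tat in 55.6% against 7.29% of cells and Hnf4a in 27.9% against 3.89%. Abundant hepatocyte transcripts were nevertheless found in many T and B cells, such as Fabp1 in 99% of hepatocyte-like and 60.7% of T or B cell-like cells and Alb in 89.5% and 51.7%. The shares of hepatocyte-like cells with Afp or Gpc3 in each library are therefore set beside those in T and B cells.

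In the liver, Afp and albumin are neighbours in 1 gene family of plasma carrier proteins, and Afp is shut off after birth by repressors such as Zhx2 and Zbtb20. Gpc3 is a heparan sulfate proteoglycan tied to the cell membrane, where it takes part in Wnt, hedgehog and insulin-like growth factor signalling. Golm1 (GP73) is a Golgi membrane protein that can be released into serum, Spink1 a secreted trypsin inhibitor, Prom1 (CD133) a membrane glycoprotein of progenitor and biliary cells, and Mdk (midkine) a heparin-binding growth factor.

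The promoters of Afp and Gpc3 are shown because this pair was the one most often detected together in single hepatocytes. They are the 250 bases before the RefSeq start on GRCm38.p6, which is another build than the mm9 named in the labels, at chr5:90490464-90490713 on the plus strand and chrX:52613975-52614224 on the minus strand. Capitals mark 4 motifs searched on both strands. They are TATAAA, a core promoter element, GTTAAT, known as part of the site of the hepatocyte factor HNF1, CCGCCC, known as the GC box, and CCAAT, known as a site of general factors.
Afp: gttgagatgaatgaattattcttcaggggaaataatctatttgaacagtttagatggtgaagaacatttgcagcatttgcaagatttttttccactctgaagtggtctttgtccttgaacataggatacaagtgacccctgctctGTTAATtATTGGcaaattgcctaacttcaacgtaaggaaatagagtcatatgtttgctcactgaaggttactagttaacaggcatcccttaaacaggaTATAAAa
Gpc3: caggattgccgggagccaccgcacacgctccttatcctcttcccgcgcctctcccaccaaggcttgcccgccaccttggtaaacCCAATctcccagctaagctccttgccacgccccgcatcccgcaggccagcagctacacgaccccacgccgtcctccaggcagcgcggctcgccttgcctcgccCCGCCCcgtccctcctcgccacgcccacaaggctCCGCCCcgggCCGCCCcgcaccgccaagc

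The 2 windows share few of these letters. The Afp window had 36% G and C, 1 TATAAA that begins at -7 from the start, 1 GTTAAT at -105 and 1 CCAAT on the reverse strand (ATTGG) at -98, and no CCGCCC. The Gpc3 window had 71.6% G and C, 3 CCGCCC of which the nearest begins at -19, and 1 CCAAT at -166, and neither TATAAA nor GTTAAT. No matches in these windows overlap. Among 32851 promoter windows of the same length, 12.4% held TATAAA, 6.43% GTTAAT, 32.7% CCGCCC and 33.8% CCAAT, and the median G and C content was 52.4%. These matches are descriptions of letters.

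Afp was by far the most counted member, with 18994 UMIs in 2929 of the analysed cells and up to 821 in 1 cell. Gpc3 had 2377 UMIs in 1246 cells, Golm1 847 in 709, Spink1 431 in 149, Prom1 253 in 207 and Mdk 156 in 123. Between 60.4% (Spink1) and 87.4% (Golm1) of the cells with a member had a single UMI of it. The cell with most UMIs of a member was a hepatocyte-like cell of library 2 for all 6 members. That class led none of them in mean level.

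Levels per class are CPM, the summed UMIs of a gene scaled to a fixed total of UMIs of the class. They pool libraries that held the classes in unequal numbers: library 1 gave 1912 of 2428 sinusoidal endothelial cell-like and 69 of 94 cholangiocyte-like cells but 6 of 191 granulocyte-monocyte progenitor-like and 2 of 342 erythroid-like cells. The part of the libraries in the order of classes was not tested, and values by library are given for some members. Afp stood at 199 CPM (196 to 202) in hepatocyte-like cells and at 252 CPM (224 to 281) in NK cell-like cells, which lead the order. Granulocyte-monocyte progenitor-like cells followed at 89.2 CPM, and macrophage-, erythroid-, T cell- and vascular endothelial cell-like cells lay between 41.0 and 52.0 CPM with neighbours that did not differ beyond their intervals. A single cell held 89 of the 114 Afp UMIs of the granulocyte-monocyte progenitor-like class and another 88 of the 127 of the erythroid-like class, a spread that these intervals do not cover. Sinusoidal endothelial cell-like cells had 4.12 CPM and cholangiocyte-like cells 1.78 CPM, from 1 UMI.

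The NK value of Afp came from 1 library. Library 2 gave 295 of the 306 Afp UMIs of the NK cell-like class, in 54 of its 202 NK cell-like cells. These 54 cells had summed NK markers at 5100 CPM against 13132 in the other 148, hepatocyte markers at 10800 against 5736 CPM, neutrophil markers at 1522 against 2.0 CPM and H19, a fetal liver RNA, at 4955 against 830 CPM. Their median depth was 2792 against 3022 UMIs, and whether they are mixed barcodes was not tested. Without library 2, hepatocyte-like cells had 3.37 times (1.88 to 6.76) the Afp level of NK cell-like cells, where with all libraries the ratio was 0.790. At a Leiden resolution of 0.5 it was 12.2.

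Gpc3 led in another class, the collagen-making stellate cell- or fibroblast-like cells. Its level there was 69.6 CPM (54.6 to 87.3, 74 UMIs in 34 of 340 cells), 2.96 times (2.32 to 3.74) that of hepatocyte-like cells at 23.5 CPM (22.5 to 24.5). In libraries 1 to 4 the stellate cell- or fibroblast-like level was 48.4, 12.2, 122 and 65.9 CPM, the second of these from 2 UMIs in 37 cells. The ratio to hepatocyte-like cells was 9.53 (6.65 to 13.4) in library 3 and 2.75 (1.5 to 4.65) in library 4. In library 2 it was 0.367, with an interval from 0.0444 to 1.33 that includes equal levels. Over the remaining libraries the ratio was 4.58 without library 2 and 1.74 without library 3. Granulocyte-monocyte progenitor-like cells were at 18.0 CPM, and the ratio of hepatocyte-like cells to them (1.30, 0.867 to 2.06) includes equal levels. A single cell held 15 of the 23 Gpc3 UMIs of that class. NK cell-like cells were at 16.4 CPM, with an interval (10.0 to 25.4) that overlaps that of hepatocyte-like cells.

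Prom1 and Mdk were highest in bile duct cells. Cholangiocyte-like cells had Prom1 at 99.5 CPM (75.2 to 129) and in 38 of 94 cells (40.4%, 30.4 to 51.0), 52.5 times (38.0 to 71.4) the level of hepatocyte-like cells at 1.90 CPM. The value was 79.2 CPM in library 1, with 69 such cells, and 142 CPM in library 3, with 23. The ratio was 95 without library 2, which has no cholangiocyte-like cell. Granulocyte-monocyte progenitor-like cells came next at 8.61 CPM (11 UMIs). Mdk was at 58.6 CPM (40.4 to 82.4) in cholangiocyte-like cells, 2.97 times (1.67 to 5.40) its level in stellate cell- or fibroblast-like cells (19.7 CPM). In hepatocyte-like cells it was at 0.352 CPM (0.239 to 0.50), from 31 UMIs in the whole class. The cholangiocyte-like class has no cell of library 2 and 2 of library 4, and most Prom1 UMIs (167 of 253) still lay in the far larger hepatocyte-like class.

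Golm1 had its lowest level in hepatocytes. It was highest in cholangiocyte-like cells (49.8 CPM, 33.1 to 71.9) and erythroid-like cells (44.7 CPM, 36.9 to 53.8), which did not differ from each other beyond their intervals, and NK cell- and plasmacytoid dendritic cell-like cells followed at 32.1 and 30.4 CPM. Hepatocyte-like cells were last of 15 classes at 3.09 CPM (2.73 to 3.48), and the cholangiocyte-like level was 16.1 times (10.5 to 23.8) that. Spink1 had no broad class: hepatocyte-like cells had 4.54 CPM (4.11 to 5.01) from 400 UMIs, while the nominally higher levels of granulocyte-monocyte progenitor-like (7.82 CPM) and erythroid-like cells (6.67 CPM) rested on 10 UMIs of 1 cell and 17 UMIs of 1 cell. It was at 0 UMIs in 8 classes, among them NK cell-, macrophage- and stellate cell- or fibroblast-like cells, where a count of 0 allows up to 3 UMIs.

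Over the 13461 genes with enough counts for such an order, the hepatocyte-like class led for 12.1% and the cholangiocyte-like class for 13.2%. Of the 6 members the hepatocyte-like class led for 0 and the cholangiocyte-like class for 3 (Golm1, Prom1 and Mdk). The leaders of Afp and Spink1 rested on little, since Afp was higher in hepatocyte- than NK cell-like cells without library 2 and Spink1 was led by 1 granulocyte-monocyte progenitor-like cell. With 6 members these counts are a description.

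**Figure D1:**
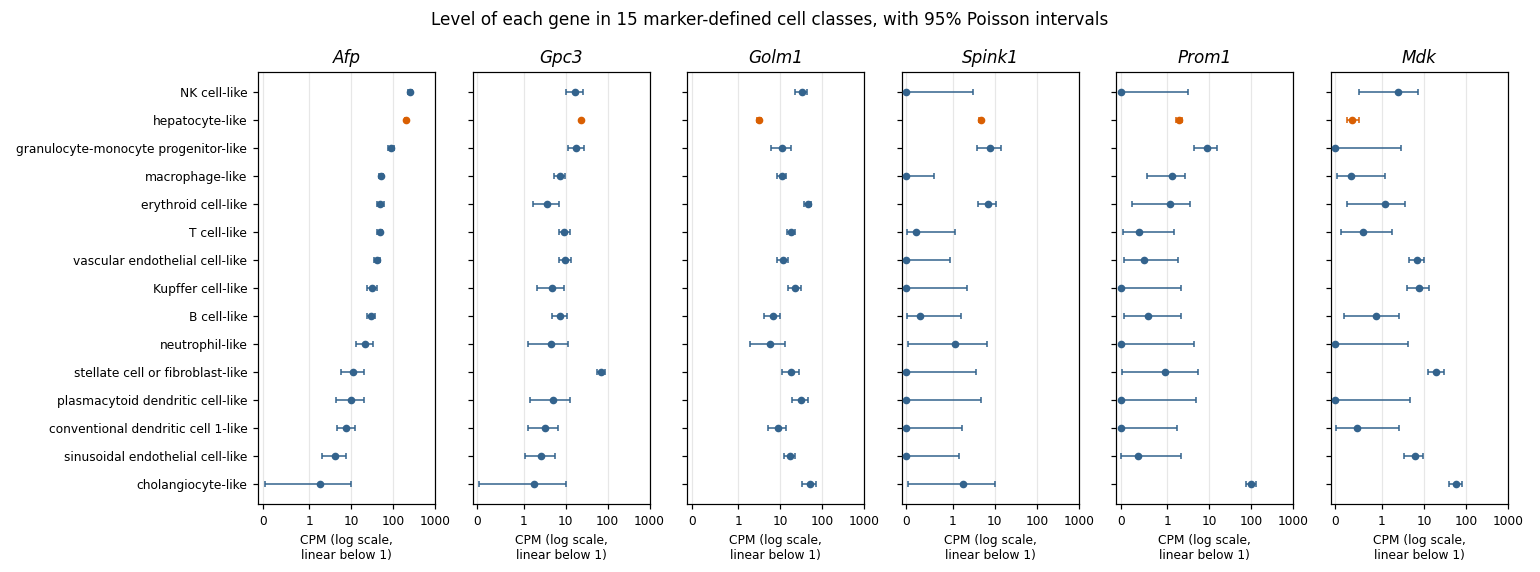
Levels of the 6 members (CPM of summed UMIs) in the 15 marker-defined classes, with exact Poisson 95% intervals for counting error. Afp is highest in NK cell- and hepatocyte-like cells (252 and 199 CPM), Gpc3 in stellate cell- or fibroblast-like cells (69.6 CPM), and Prom1 and Mdk in cholangiocyte-like cells (99.5 and 58.6 CPM).

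Within hepatocyte-like cells Afp and Gpc3 differed between libraries by more than the counting error. Afp was at 1.16 CPM in library 1, 414 in library 2, 26.8 in library 3 and 102 in library 4. Gpc3 was at 0.145, 33.2, 12.8 and 23.9 CPM in the same order. Library 1 was lowest and library 2 highest for both genes, with library 2 at 4.08 times (3.92 to 4.24) library 4 for Afp and 1.38 times (1.26 to 1.52) for Gpc3. Library 4 exceeded library 3 by 3.79 times (3.43 to 4.19) for Afp and 1.86 times (1.60 to 2.18) for Gpc3.

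In library 1 the only UMIs of these genes in 3693 hepatocyte-like cells were 8 of Afp, each in a cell of its own, and 1 of Gpc3, so that no lower bound is drawn for Gpc3 there. Golm1 was at 0.289, 5.92, 1.66 and 1.40 CPM, Spink1 at 0.434, 10.6, 1.78 and 0.391, and Prom1 at 0, 3.27, 0.357 and 1.66. Mdk had 29 UMIs in library 2, 2 in library 4 and 0 in libraries 1 and 3. Library 2 was highest for all 6 members, and library 4 was above library 3 for Afp, Gpc3 and Prom1 but below it for Spink1 and, slightly, Golm1. Sample, sequencing depth and handling of a library cannot be told apart in these differences.

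T and B cells followed the same order of libraries for Afp. Their level was 2.09, 67.7, 32.1 and 49.8 CPM in libraries 1 to 4. Of the 240 Afp UMIs of the T cell-like class, 3 cells held 81. Of the 3 T cell-like cells with at least 5 Afp UMIs, 2 were of library 3. The Gpc3 level of T and B cells was 0, 7.98, 16.5 and 7.22 CPM, nominally highest in library 3. That value came from 39 UMIs in 17 cells, and 2 T cell-like cells of library 3 had at least 5 UMIs. Over all libraries, 3 T cell-like cells held 20 of the 47 Gpc3 UMIs of their class, a spread that counting intervals do not cover. Golm1 behaved otherwise, at 13.1, 15.6, 11.4 and 13.7 CPM, above the hepatocyte-like level of each library.

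To compare shares of cells at 1 depth, each cell was thinned to 1000 UMIs, which left out 4140 hepatocyte-like and 1069 T or B cell-like cells with fewer. Afp was then found in 0.168%, 7.68%, 1.87% and 5.53% of hepatocyte-like cells of libraries 1 to 4 (before thinning 0.217%, 20.7%, 3.28% and 17.0%). In T and B cells it was found in 0%, 6.48%, 1.77% and 4.13% (before thinning 0.282%, 14.9%, 2.70% and 9.60%), and 0 of 757 cells in library 1 allows up to 0.396%. In libraries 2, 3 and 4 the intervals of both classes overlapped (6.89 to 8.54% against 4.89 to 8.39% in library 2), so that 1 UMI of Afp did not set a hepatocyte-like cell apart from the background. With a minimum of 3 UMIs the intervals were apart in library 2, at 1.82% (1.44 to 2.28) of hepatocyte-like cells against 0.244% (0.0296 to 0.880) of T and B cells. In library 4 the share was 0.711% (0.498 to 0.983) against 0 of 606 cells in library 4, which allows up to 0.495%. These last intervals overlap, since the exact interval of 0 of 606 reaches 0.607%.

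Gpc3 had less background. It was found in 0%, 2.72%, 0.934% and 2.15% of thinned hepatocyte-like cells and in 0%, 0.978%, 0.933% and 0.660% of T and B cells. The intervals were apart in library 2 (2.25 to 3.27% against 0.423 to 1.92%) and library 4 (1.77 to 2.59% against 0.180 to 1.68%), and the shares of library 3 were equal within counting error. In library 1, 0 of 2972 hepatocyte-like cells allows up to 0.101%.

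**Figure D2:**
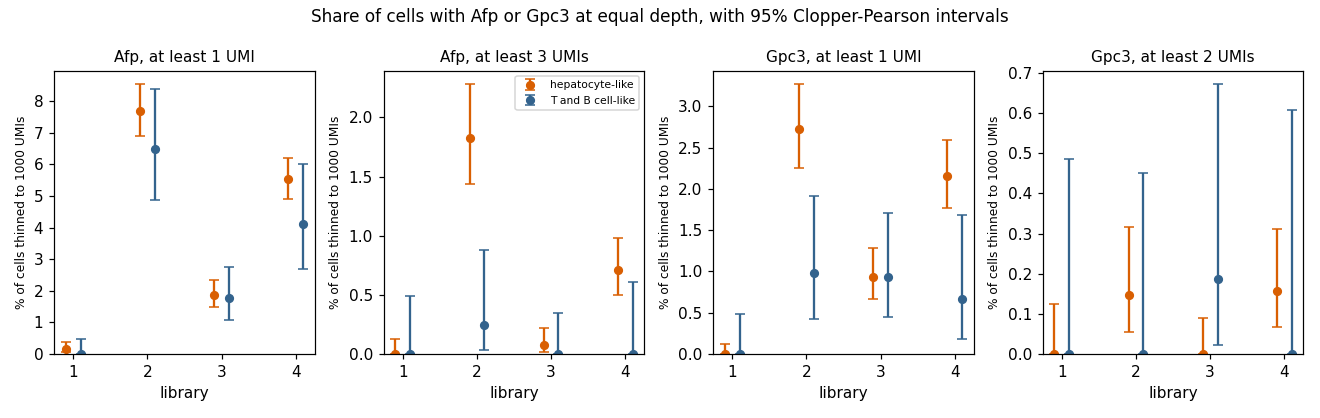
Percent of cells with a UMI of Afp and of Gpc3 in each library after thinning to 1000 UMIs, for hepatocyte-like cells and for T and B cells, with exact 95% intervals for counting error. Panels show at least 1 and at least 3 UMIs of Afp and at least 1 and at least 2 UMIs of Gpc3. The shares with 1 UMI of Afp lie close together (7.68% and 6.48% in library 2), while Gpc3 is more frequent in hepatocyte-like cells in libraries 2 and 4.

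Most Afp RNA lay in few hepatocytes. The 39 cells with at least 100 Afp UMIs (37 of library 2 and 2 of library 4) held 55.7% of the Afp UMIs of hepatocyte-like cells, and the 204 cells with most (1% of the class) held 84.8%. After thinning, the top 1% still held 63.5%. At the other end, 1513 cells with a single UMI held 8.65%, and 18239 of 20357 cells had none.

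Cells with at least 5 Afp UMIs are called Afp-rich here, and 261 hepatocyte-like cells met this minimum (0, 157, 13 and 91 in libraries 1 to 4). Just inside and outside it, 86 cells had 5 to 9 UMIs and 344 had 2 to 4. Outside the class, 30 NK cell-, 6 macrophage-, 3 T cell-, 2 granulocyte-monocyte progenitor- and 1 erythroid-like cell met it, as did 29 barcodes removed by the filters. For Gpc3, 88 hepatocyte-like cells had at least 5 UMIs (0, 52, 11 and 25). The top 1% of cells held 55.7% of its UMIs in whole cells and 65.4% after thinning. After thinning, 259 of 16217 hepatocyte-like cells had a UMI of Gpc3 and 14 had at least 2. The thinned top 1% is thus mostly cells with 1 UMI, and its share is not compared with that of Afp.

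The Afp-rich cells were deep. Their median was 15341 UMIs against 4527 in cells without Afp in library 2 and 8825 against 3148 in library 4, and their median mitochondrial share was 1.71% against 1.03% and 2.84% against 0.718%. Their median doublet score was 0.0954 against 0.0645 in library 2 and 0.0865 against 0.0976 in library 4. The part of depth and of mitochondrial RNA in what follows was not tested except where values at 1 depth are given.

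**Figure D3:**
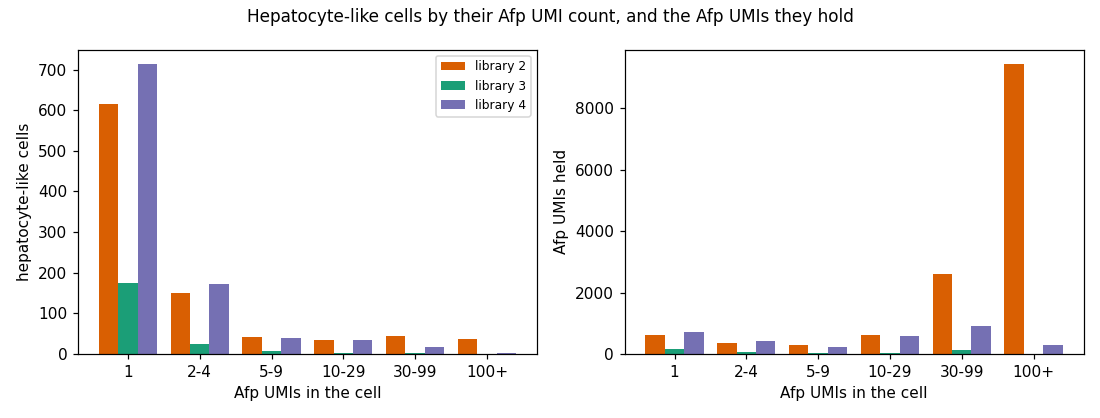
Number of hepatocyte-like cells of libraries 2, 3 and 4 by their count of Afp UMIs (left) and the Afp UMIs these cells hold (right). Cells with 1 UMI are the most frequent of those shown, and the 37 cells of library 2 with 100 or more UMIs hold most of the Afp UMIs.

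The 9 clusters of hepatocyte-like cells held very different shares of these cells. The members had been left out of the genes used for clustering. Cluster 3, whose leading genes besides Afp include Bex1, Apoa4, H19 and Dlk1, held 174 of the 261 Afp-rich cells (7.64% of its 2278 cells, 6.58 to 8.81). Cluster 21, which leads with the nuclear RNAs Neat1 and Kcnq1ot1 beside Gm26917 and Apob, held 35 of its 595 cells (5.88%, 4.13 to 8.09), and cluster 6 held 34 of 2698 (1.26%). Cluster 4, with 3629 of its 3833 cells from library 1, leads with adult genes such as Elovl3, Hsd3b5 and Serpina1e and held 0, which allows up to 3 cells. Clusters 13 and 14 held 0 of 2883 and 1 of 2491 cells. Cluster 22, which leads with genes of cell division such as Ube2c, Cdk1 and Birc5, held 5 of 496 (1.01%, 0.328 to 2.34).

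The same clusters stood apart for other members. Ratios are given within libraries 2, 3 and 4, since the clusters held unequal shares of them. Cluster 3 had 6.61 times (6.34 to 6.89), 10.4 times (8.54 to 12.6) and 3.60 times (3.35 to 3.86) the Afp level of the remaining hepatocyte-like clusters of the same library, at 873, 180 and 234 CPM. Its Gpc3 level was 2.56, 16.1 and 3.88 times and its Golm1 level 3.76, 10.4 and 4.19 times that of the others, with all 6 intervals above 1. Its Prom1 level was 1.62 times (1.10 to 2.41) that of the others in library 2 and 3.79 times (2.10 to 6.84) in library 4, and in library 3 it rested on 2 UMIs. Cluster 21 had 1.92 times (1.81 to 2.03), 6.37 times (4.40 to 8.97) and 4.95 times (4.46 to 5.49) the Afp level and 5.12, 5.88 and 10.2 times the Gpc3 level of the others. Its Prom1 level was 7.04 times (4.51 to 10.7) that of the others in library 2 and 15.9 times (8.33 to 29.3) in library 4.

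Spink1 was lower in cluster 21 of library 2, at 0.396 times (0.169 to 0.788) the level of the others from 8 UMIs, and had 0 UMIs there in libraries 3 and 4. Gpc3 in cluster 21 was at 138, 70.9 and 190 CPM in libraries 2, 3 and 4, and in cluster 3 it was at 53.2, 110 and 57.3 CPM. In library 3 cluster 21 was nominally below cluster 3, with overlapping intervals (40.5 to 115 against 89.9 to 132). Its Gpc3 value there came from 16 UMIs in 5 of 75 cells, and its Afp value from 36 UMIs, also in 5 cells. The Spink1 level of cluster 3 was 24.2 CPM in library 2 (11.2 times that of the other clusters, 8.17 to 15.7), 0 CPM in library 3 (116 cells) and 0.757 CPM (5 UMIs) in library 4. Cluster 3 of library 2 alone gave 310 of the 400 Spink1 UMIs of hepatocyte-like cells.

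Gpc3 was more frequent in cells with more Afp. It was found in 3.64% of hepatocyte-like cells without Afp, 7.67% with 1 UMI, 18.0% with 2 to 4, 53.5% with 5 to 9, 60.6% with 10 to 29, 81.5% with 30 to 99 and 97.4% (38 of 39 cells) with 100 or more. The median depth was 2026 UMIs in the first of these bins and 41990 in the last. With each cell thinned to 1000 UMIs, where the bins still come from whole cells, the shares were 1.15%, 2.05%, 5.28%, 10.1%, 21.1%, 26.2% and 25.6%. The last 3 bins did not differ beyond their intervals at that depth.

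In Afp-rich cells against cells without Afp, the thinned share of Gpc3 was 19.7% (13.7 to 27) against 2.10% (1.63 to 2.65) in library 2 and 21.3% (13.4 to 31.3) against 1.57% (1.21 to 1.99) in library 4. The intervals were apart in both libraries. The other members were found in few cells at this depth. Spink1 was found in 17 of 152 thinned Afp-rich cells of library 2 (11.2%, 6.65 to 17.3) against 0.154% of cells without Afp, and in 0 of 89 in library 4, which allows up to 3 cells. Golm1 was found in 1.97% (0.409 to 5.66) against 0.618% in library 2, with overlapping intervals. Prom1 was found in 2.25% (0.273 to 7.88) against 0.0964% in library 4, with intervals that were apart, and in 1.97% (0.409 to 5.66) against 0.340% in library 2, where they overlapped.

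**Figure D4:**
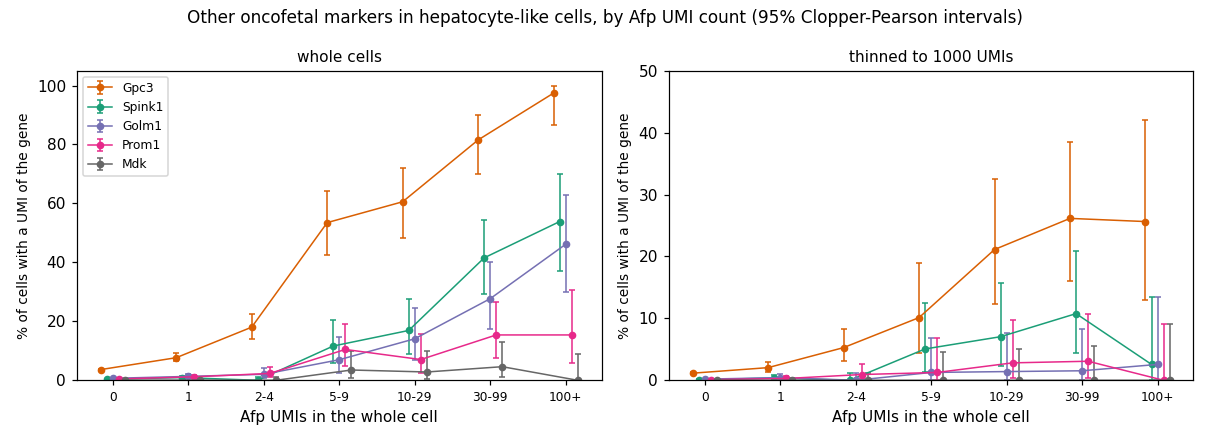
Percent of hepatocyte-like cells with a UMI of Gpc3, Spink1, Golm1, Prom1 and Mdk by the cell's number of Afp UMIs, in whole cells and after thinning to 1000 UMIs, with exact 95% intervals. Gpc3 goes from 3.64% to 97.4% in whole cells and from 1.15% to 25.6% after thinning.

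Detection of both genes at 1 depth was also counted within libraries without such bins. Among thinned hepatocyte-like cells of library 2, Gpc3 was found in 34 of 316 cells with Afp (10.8%, 7.57 to 14.7) and 2.05% (1.63 to 2.56) of those without. In library 3 it was 6 of 76 cells (7.89%, 2.95 to 16.4) against 0.802% (0.549 to 1.13), and in library 4 it was 23 of 280 (8.21%, 5.28 to 12.1) against 1.80% (1.44 to 2.22). The intervals were apart in all 3 libraries, and library 1 had no cell with both.

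Summed over libraries, 63 cells held both where independent detection within each library would give 15.3, a ratio of 4.11. This was the largest count of the 15 pairs of members, and the count under independence was also the largest for this pair. The ratio was higher for Spink1 with Prom1 (16.4, 2 cells against 0.122), Gpc3 with Spink1 (6.29), Gpc3 with Golm1 (5.74) and Afp with Spink1 (5.04). Each of these rested on fewer cells, and the remaining pairs had lower ratios. Afp with Spink1 was found in 11 cells against 2.18, all of them in library 2, Afp with Golm1 in 8 against 2.41, and Gpc3 with Golm1 and with Spink1 in 5 cells each against 0.871 and 0.795. In whole cells, 17361 hepatocyte-like cells had no member, 2516 had 1, 361 had 2, 86 had 3, 23 had 4, 9 had 5 and 1 had all 6.

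The rest of the transcriptome of cells with Afp was compared within libraries in both ways. A gene was called higher or lower at a mean difference of at least 2-fold over the libraries used (those with at least 50 cells on each side), in the same direction in each, with at least 100 UMIs on both sides together. Values are log2 ratios of CPM, with counting intervals per library. A stricter count asks that the interval excludes equal levels in every library.

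With the thinned cells, where 316, 76 and 280 cells of libraries 2, 3 and 4 had a UMI of Afp, 89 of 7763 genes were called higher (1.15%) and 149 lower (1.92%). Only 12 of the higher calls (0.155% of genes tested) and 0 of the lower calls had intervals apart from equal levels in every library. The 10 lowest, among them Adra1b, Zfp414 and C730027H18Rik, had 0 to 6 UMIs in the cells with Afp of a library, and nothing is read from them. Without library 2 the calls were 150 and 321, and without library 4 the lower calls were 296. Few calls recurred at another depth: of the 89 higher and 149 lower genes, 10 and 13 were called again at 500 UMIs and 16 and 7 at 2000 UMIs. The rule also called unchanged genes of simulated thinned cells, so the number of changed genes is not read from these counts, and the genes below are descriptions. Of the 5 other members Gpc3 alone passed the minimum. Its mean log2 ratio of 2.57 was the highest of all genes called, at 133 against 20.5 CPM in library 2 (log2 ratio 2.60, 2.12 to 3.25), 78.9 against 8.02 in library 3 (2.55, 1.75 to 4.58) and 118 against 18.6 in library 4 (2.55, 2.04 to 3.25).

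Genes of the fetal liver list and growth factor genes were among the other calls. The maternally expressed RNA Meg3 had a mean log2 ratio of 2.29 and Bex1 of 1.96, both with an interval that includes equal levels in library 3. Scd2, a fatty acid desaturase of fetal liver (1.65), Serpina6, the corticosteroid-binding globulin (1.62), Tmsb10 (1.57), Igfbp1 (1.54), Igf2r (1.42) and Igf2 (1.23) were called with intervals apart in each library. Over all genes tested in this split, 1.15% were called higher and 1.92% lower. Of 8 tested fetal liver and carcinoma genes 4 were called higher (Igf2, Bex1, Scd2 and Robo1) and 0 lower, with a median of 0.99 beside -0.02 for all genes tested. Of 10 proliferation genes 3 were called higher (Mki67, Top2a and Birc5, median 0.70, 1 with intervals apart) and of 14 mature hepatocyte genes 0 were called (median -0.11).

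The comparison of Afp-rich cells with cells without Afp used whole cells and was added after the data had been seen. It holds 157 against 3528 cells in library 2 and 91 against 4774 in library 4, and 872 of 10449 genes were called higher (8.35%) and 783 lower (7.49%), of which 661 (6.33%) and 450 (4.31%) had intervals apart in both libraries. Limited to cells of at least 5000 UMIs on both sides, 766 of the 872 and 639 of the 783 were called again. With library 4 alone, 464 genes were called lower.

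Of the 5 other members, 4 passed the minimum of 100 UMIs. Spink1 and Prom1 passed only together with the Afp-rich cells, since the cells without Afp held 26 and 7 UMIs of Spink1 and 61 and 27 of Prom1 in libraries 2 and 4, so that the passing itself favoured a higher level and their values are descriptions. Gpc3 was at 179 against 16.5 CPM in library 2 (log2 ratio 3.43, 3.26 to 3.63) and at 174 against 16.7 in library 4 (3.34, 3.12 to 3.63), so that the libraries gave like sizes. Golm1 was at 28.4 against 3.60 CPM in library 2 (2.93, 2.54 to 3.42) and 4.27 against 1.18 in library 4 (1.55, 0.12 to 3.25, from 5 UMIs). Prom1 was at 8.52 against 2.65 CPM (1.63, 1.00 to 2.34, from 30 and 61 UMIs) and 10.3 against 1.18 (2.73, 2.0 to 4.15, from 12 and 27 UMIs). Gpc3, Golm1 and Prom1 were each called higher with intervals apart in both libraries.

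Spink1 was not called, because the rule asks for the same direction in each library and library 4 did not show a higher level. It was at 87.5 against 1.13 CPM in library 2 (log2 ratio 6.11, 5.70 to 6.91), from 308 and 26 UMIs, and had 0 UMIs in the Afp-rich cells of library 4 against 7 in the others. A count of 0 is taken to allow 3 counts, so these few UMIs give no direction for library 4. Mdk fell under the minimum, with 8 of 157 Afp-rich cells (5.10%) against 0.113% of cells without Afp in library 2 and 0 of 91 against 0.0419% in library 4.

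The largest ratio was that of a fetal liver gene. Dlk1, a Notch-like membrane protein of hepatoblasts, was at 408 against 0.304 CPM in library 2 (1438 and 7 UMIs) and 19.7 against 0.219 CPM in library 4 (23 and 5 UMIs), a mean log2 ratio of 7.40. It met the minimum of 100 UMIs only through the Afp-rich cells. Bex1 was at 754 against 22.9 CPM and 238 against 20.7 CPM (mean 4.27), and Meg3 at 122 against 2.04 CPM and 151 against 14.7 CPM (mean 4.57). Other genes among the 10 highest calls were the retinol-binding protein Rbp2 (5.06), Lgals2 (4.83), Tspan7 (4.61), the ligand Wnt4 (4.55), the hormone receptor Pth1r (4.52) and the transcription coactivator Cited1 (4.24). Pth1r and Cited1 had 1 UMI each in the Afp-rich cells of library 4, and their intervals there include equal levels. The minimum counts both sides together, so it favours genes with many UMIs in the Afp-rich cells. Which of these genes would pass without those cells is not given here, and their places among the highest are descriptions. Of 11 tested fetal liver and carcinoma genes 3 were called higher (Dlk1, Bex1 and Scd2) and 0 lower, where 8.35% of all genes tested were called higher and 7.49% lower. Their median was 0.88 beside 0.11 for all genes tested, Dlk1 included in both count and median. H19 and Igf2, at mean log2 ratios of 0.67 and 0.82, were not called, nor was Peg10, at 6.74 in library 2 and -0.27 in library 4.

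Of 10 proliferation genes, 6 were called higher and 0 lower, all with intervals apart (median 1.46 beside 0.11, and 8.35% of all genes tested were called higher): Mki67, Top2a, Ccnb1, Cdk1, Birc5 and Cenpa. Mki67 was at 139 against 46.8 CPM in library 2 and 41.0 against 13 in library 4, and Birc5, an inhibitor of cell death that acts in mitosis, at 302 against 110 and 140 against 43.9. Among 7 biliary and progenitor genes Cdh1 (E-cadherin, mean 2.69), Lgr5 (1.24) and Anpep (1.13) were called higher and Spp1 lower (3 and 1 of 7, beside 8.35% and 7.49% of all genes), the last from 0 UMIs in the Afp-rich cells.

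Mature hepatocyte genes were on the lower side. Of 13 tested, 7 were called lower and 0 higher, all with intervals apart, with a median of -1.18, where 7.49% of all genes tested were called lower. Pck1, the key enzyme of glucose synthesis, was at 29.3 against 264 CPM in library 2 and 62.4 against 452 in library 4 (mean -3.01). Tdo2, which breaks down tryptophan, was at 48.0 against 594 and 230 against 760 CPM (mean -2.67), and the urinary protein gene Mup20 at 10.2 against 270 and 158 against 1398 CPM (mean -3.92). Tat, Ass1, Cyp2e1 and Glul had means of -1.49, -1.41, -1.29 and -1.18.

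The other 6 mature genes were not called, among them Ttr (0.42), Apoa1 (0.32) and Cyp1a2 (0.23). Within the albumin family Alb was at 2283 against 3379 CPM in library 2 (log2 ratio -0.57) and 5592 against 2579 in library 4 (1.12), opposite directions with intervals apart from equal levels. The sum of the 12 hepatocyte markers went the same ways, from 23840 to 12915 CPM in library 2 and from 25011 to 31209 CPM in library 4 (cells without Afp first).

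Among 13 regulators of Afp transcription none was called higher and 1 was called lower. This is near the share of all genes tested that were called lower (7.49%), so nothing is read from the count. The gene called was the repressor Zhx2, at 1.42 against 5.12 CPM in library 2 (5 and 118 UMIs) and 2.56 against 6.31 in library 4 (3 and 144 UMIs). Its interval in library 4 includes equal levels. Zbtb20, the other known repressor, had log2 ratios of -1.16 in library 2 and 0.49 in library 4, both with intervals apart from 0. The 10 lowest calls include Serpina3k (-4.98), Ubd (-4.47), Nlrp12 (-4.37), Colec12 (-4.22) and the interferon-induced genes Ifit3 (-4.15) and Apol9b (-3.74), with 0 to 6 UMIs each in the Afp-rich cells of a library.

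Markers of macrophages moved with this split. Of 7 tested macrophage markers 6 were called lower (1 with intervals apart), beside 7.49% of all genes tested (4.31% with intervals apart). The summed level of the macrophage markers was 12.8 against 49.6 CPM in library 2 and 8.55 against 17.7 in library 4, where Lyz2, C1qb, Trem2, Gpnmb and Csf1r were at 0 in the Afp-rich cells. Erythroid markers were at 4.26 against 22.4 CPM and 7.69 against 28.9 CPM, and vascular endothelial markers at 59.4 against 15.3 CPM and 20.5 against 6.66 CPM. Of the 8 vascular endothelial markers Egfl7 alone met the minimum, and it was called higher. Cdh5, Vwf and Emcn were at 0 in the Afp-rich cells of library 2 and Cd34 in those of library 4. Cholangiocyte markers were at 48.3 against 2.95 CPM and 4.27 against 1.01 CPM. Cftr was at 0 in the Afp-rich cells of both libraries, and Krt7 and Epcam in those of library 4. None of the 6 cholangiocyte markers met the minimum. Their part in the gene calls was not tested. Stellate cell or fibroblast markers were at 8.81 against 11.9 CPM and 5.13 against 2.89 CPM, with Col1a1 and Col1a2 at 0 in the Afp-rich cells of both libraries.

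**Figure D5:**
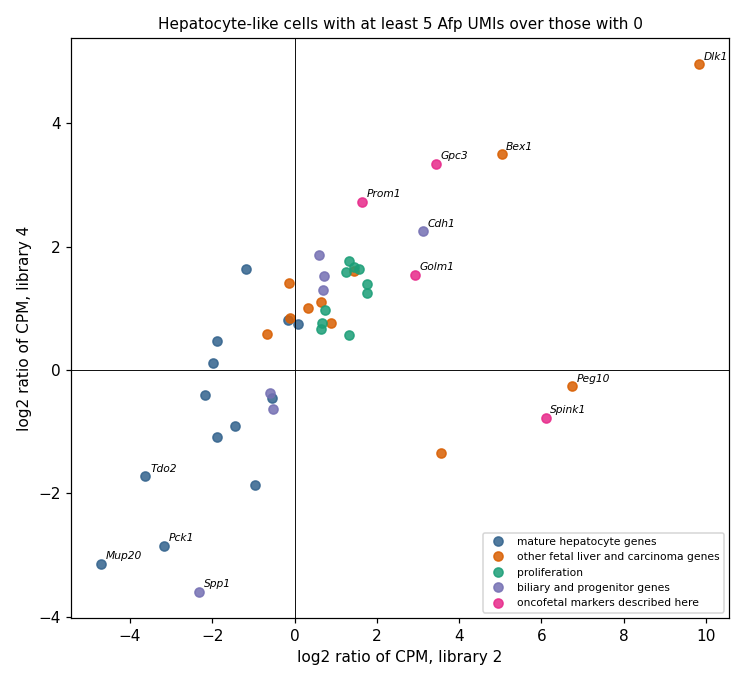
Log2 ratio of CPM, Afp-rich over Afp-free hepatocyte-like cells, in library 2 (x axis) and library 4 (y axis) for tested genes of 4 function lists and the members. Gpc3, Prom1 and Golm1 lie above 0 in both libraries with the 10 proliferation genes, Spink1 and Peg10 only in library 2, and Mup20, Pck1 and Tdo2 below 0 in both.

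Gpc3 as the dividing gene gave a partly related picture, in part from the same cells. In thinned cells (112 and 109 cells with Gpc3 in libraries 2 and 4) 608 of 7021 genes were called higher (8.66%) and 527 lower (7.51%), and 236 (3.36%) and 29 (0.413%) of these had intervals apart. With library 2 alone, 337 were called higher. Of the 608 and 527 genes, 129 higher and 93 lower were called again at 500 UMIs and 448 and 54 at 2000 UMIs, and the number of changed genes is not read from these counts either. Afp was the highest, at 2062 against 154 CPM in library 2 (log2 ratio 3.71, 3.52 to 3.97) and 1055 against 77.1 in library 4 (3.70, 3.46 to 4.08). Other genes among the 10 highest were Meg3 (2.54), the lysosomal mannosidase Man2b1 (2.32), Lmf2 (2.31), Ankrd10 (2.23), Pcdh1 (2.12), Nrp2 (2.09), Mogs (2.06) and Igf2r (2.01), a receptor for Igf2.

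In whole cells with at least 3 Gpc3 UMIs (93 and 61 cells), a comparison also added later, 1476 of 10571 genes were called higher (14%) and 901 lower (8.52%), 1133 (10.7%) and 548 (5.18%) of them with intervals apart. Dlk1 (5.13) and Bex1 (3.84) were again among the 10 highest, as was Afp at 3896 against 77.6 CPM in library 2 and 1351 against 45.9 in library 4 (mean 5.25). Golm1 was at 23.7 against 3.67 CPM and 6.85 against 1.10 CPM (mean 2.39), and Prom1 at 10.1 against 2.15 and 7.99 against 0.907 CPM (mean 2.34). Prom1 had 58 and 24 UMIs in the cells without Gpc3, so that here too it met the minimum only with the others.

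Of 8 glypicans and growth signal receptors 6 were called higher, where 14% of all genes tested were, with a median of 1.43 beside 0.13 for all genes tested: Igf2r (2.37), the Wnt receptors Fzd7 (1.67), Lrp5 (1.60) and Lrp6 (1.25), Notum, an enzyme that inactivates Wnt ligands (1.63), and Gpc4 (1.17). In the midkine axis 3 of 7 tested genes were called higher, Lrp1 (1.68), Itgb1 (1.63) and Notch2 (1.84), which can bind midkine. The syndecan Sdc3 was called lower (-1.07, from 5 and 0 UMIs in the Gpc3 cells), and Mdk itself did not reach the minimum of 100 UMIs. In the Golgi list 3 of 6 were called higher (Golgb1, Man2a1 and Tgoln1, median 0.80). Of 13 mature hepatocyte genes 6 were called lower and 0 higher (median -0.59), where 8.52% of all genes were called lower, and 6 of 10 proliferation genes were called higher (median 1.13). In the thinned split, Cps1 and Cyp1a2 of 13 mature genes were called higher and Ass1 lower (median 0.21). Of the 10 proliferation genes Mki67 alone was called there. Over all genes tested in that split, 8.66% were called higher and 7.51% lower. These small counts are near those shares, so nothing is read from them. Alb, Afm and Gc of the albumin family were all called higher in the thinned split (median 1.18), beside 8.66% of all genes tested. In whole cells none of them was called. In the whole cells, stellate cell or fibroblast markers were at 2.33 against 11.1 CPM in library 2 and 4.57 against 3.14 in library 4, with Col1a1 and Dcn at 0 in the Gpc3 cells of both. Erythroid markers were at 3.11 against 29.8 CPM and 4.57 against 39.4 CPM, vascular endothelial markers at 61.0 against 14 and 27.4 against 5.97, cholangiocyte markers at 37.3 against 5.15 and 4.57 against 2.12, and macrophage markers at 26.4 against 45.4 and 7.99 against 17.7. Of the cholangiocyte markers, Cftr was at 0 in the Gpc3 cells of both libraries, and Krt7, Epcam and Cldn7 in those of library 4. Egfl7 was again the only vascular endothelial marker that met the minimum. Cdh5, Vwf, Cd34 and Emcn were at 0 in the Gpc3 cells of library 2, and Vwf and Cd34 in those of library 4. The summed hepatocyte markers went opposite ways, at 14980 against 22509 CPM in library 2 and 36518 against 24189 in library 4. The part of these markers in the gene calls was not tested.

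Across 66 units of 1 cluster in 1 library with at least 50 cells, the levels of Afp and Gpc3, as log2 of CPM with 10 added, had a Pearson correlation of 0.68 (Spearman 0.72). Units of 1 library share its depth and background, and no p is given. The genes most like Afp were the secreted or hepatocyte genes Serpina6 (0.91), Gulo (0.88), Serpinf2 (0.88), Slc39a5 (0.87) and Apoa4 (0.87), and those most like Gpc3 were Cdh2 (0.91), C1s1 (0.89), Abca8a (0.87), Ildr2 (0.87) and Pcsk6 (0.86). Spink1 was most like Dlk1 (0.84, with a Spearman of 0.33), Mmd2 (0.82), Cited1 (0.79), Bex2 (0.78) and S100g (0.76). Prom1 followed the biliary gene Pkhd1 (0.87), Tmem184a (0.84), Myh14 (0.82), Dsg2 (0.81) and Kif12 (0.80). The Spearman values of these 5 genes were lower, from 0.47 (Pkhd1) to 0.58 (Myh14), and the unit highest in Prom1, the cholangiocyte-like cells of library 1, was at 79.2 CPM where the next was at 18.2. Golm1 had no gene above 0.72 (Cd47, Reep5, Mfsd10, Pigk and Tmem50a). Mdk was under the minimum of 200 UMIs.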

How the data were processed

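Livers were digested, passed through a mesh, freed of red cells by lysis and sequenced as 10x 3′ libraries, per the labels' protocols. The deposited matrix holds raw UMI counts, and Cell Ranger 6.0.1 is the software version per the file headers. The build is mm9 per the submitters' processing notes. The sources used here name no annotation. Barcodes with at least 200 genes, 500 UMIs and under 20% mitochondrial UMIs were kept, and doublets were removed at a Scrublet score above 0.25 within each library (scanpy 1.11.5, expected rate 8%). Filters removed 30, 902, 107 and 799 barcodes of libraries 1 to 4 for mitochondrial UMIs, 41, 0, 33 and 10 for genes or UMIs, and 566, 136, 383 and 251 as doublets, at total depths of 15593960, 49975828, 24012736 and 40617071 UMIs. Leiden clustering (2000 variable genes, 30 components, 15 neighbours, resolution 1) left out the members and those function list genes that are not cell type markers. List genes that are also markers, such as Alb and Tat, were not left out. The 24 clusters were named from marker lists, so class names rest on those markers.

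Intervals are exact: Poisson for CPM, Clopper-Pearson for shares and conditional binomial for ratios. They were computed with scipy 1.17.1. A count of 0 is taken to allow 3 counts. No group has a replicate, so no test was made. Before the log of a ratio the same CPM was added on both sides, worth 0.5 counts on the smaller side. This form was chosen after 2 others had been tried on these data, because 0.5 counts on each side of unequal totals moved genes without UMIs to 1 side. The text names all members, the 5 genes most like each, the 10 highest and 10 lowest called genes of a split or some of them, and called members of the function lists. The contrasts were tested on simulated data, in which changed genes were mostly called and some unchanged genes were called too, more of them in the thinned splits. Alternatives covered the thinning depth, doublets, cell filter, resolution, clustering genes, cells with UMIs of other classes, detection minimum, fold and UMI minimum, added counts and each library left out. The members, gene lists and markers were chosen with earlier results of these data known. Of 6 members, 4 matched a RefSeq promoter used here. Some genes that the rule names are not reported here.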

Additional observations from a re-analysis of the deposited data

How the results depend on the processing

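The thinned share of hepatocyte-like cells with Afp (4.17%) was 2.64% at 500 UMIs, 6.60% at 2000 UMIs and 1.06% with a minimum of 2 UMIs, that of library 2 (7.68%) was 5.08%, 9.67% and 2.48%, and that of library 4 (5.53%) was 3.86%, 8.25% and 1.18%. For Gpc3 (1.60%) the values were 0.801%, 3.12% and 0.0863%, and 1.36% under the stricter cell filter. The ratio of cells with Afp and Gpc3 to those under independence (4.11) was 3.08 at 2000 UMIs and 36.9 with 2 UMIs of each. The Afp level of hepatocyte- over NK cell-like cells (0.790) turned to 12.2 at resolution 0.5 and to 3.37 without library 2. In the thinned Afp split, 89 higher and 149 lower calls became 504 and 861 with 2 UMIs, 570 and 481 at 1.5-fold, 141 and 301 with 30 UMIs, 872 and 783 with 5 UMIs in whole cells, 461 and 50 with 0.5 counts added on each side, and 246 and 438 with 1 count shared by the totals of the sides. The lower calls were 250 at 500 UMIs and 69 at 2000 UMIs. Of the 89 and 149 genes, 10 and 13 were called again at 500 UMIs, 16 and 7 at 2000 UMIs, 49 and 31 in whole cells and 32 and 49 without library 3. In the thinned Gpc3 split, 608 higher calls became 367 under the stricter filter, 277 at 500 UMIs, 1197 at 2000 UMIs, 1268 at 1.5-fold, 925 with 30 UMIs, 1476 with 3 UMIs in whole cells and 1004 with 0.5 counts on each side, and 527 lower calls became 274 at 2000 UMIs, 1219 at 1.5-fold, 901 with 3 UMIs in whole cells and 329 with 0.5 counts on each side. The whole-cell splits and the other added counts were chosen after seeing the data. The cause of these moves was not tested. The numbers of calls of the whole-cell splits stayed within 1.5 times of their values with doublets kept, the stricter filter, both other resolutions, all variable genes in the clustering, cells without UMIs of other classes, at least 5000 UMIs and both other forms of added counts. A number does not say which genes: under the stricter filter 768 of the 1476 higher and 645 of the 901 lower genes with 3 UMIs of Gpc3 were called again, and 822 of 872 and 721 of 783 for Afp-rich cells.

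Genes that changed direction were Adra1b (log2 ratio 0.23) and C730027H18Rik (0.14) at 500 UMIs and Zfp414 at 2000 UMIs (0.15) and in whole cells (0.0773) in the Afp split, and Neurl2 (0.30), Tgoln1 (-0.0714) and Sdc1 (-0.56) at 500 UMIs and Acd (0.018) at 2000 UMIs in the Gpc3 split. Leaving out each library gave 2.98 to 5.07% for the Afp share, 1.21 to 1.96% for Gpc3, 1.74 to 4.58 for the stellate over hepatocyte ratio of Gpc3, 0.726 to 3.37 for the hepatocyte over NK ratio of Afp, 35.5 to 95 for the Prom1 ratio, 3.90 to 4.31 for co-detection, and 0.63 to 0.73 for the correlation of Afp and Gpc3. Calls ranged from 86 to 150 higher and 109 to 321 lower in the Afp split, 872 to 968 and 464 to 1146 for Afp-rich cells, 337 to 608 and 422 to 638 in the Gpc3 split, and 1054 to 1802 and 882 to 1117 with 3 UMIs of Gpc3. The Gpc3 split with 2 UMIs was not run, since no library had enough cells. No paired analysis was possible because each group has 1 sample and no library is paired with a sample.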
